A study of Mus musculus with 4 samples.

Results

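The genes described here are 10 interferon-inducible GTPases of the mouse: the guanylate binding proteins (GBPs) Gbp2, Gbp3, Gbp6, Gbp7, Gbp9, Gbp10 and Gbp11, and the immunity-related GTPases (IRGs) Irgm1, Igtp and Iigp1. They were chosen by symbol, as the rows of the count table whose Ensembl identifier maps to these names, and all 10 were found among the 46603 identifiers in the table. The set was chosen from these same samples because Gbp10 was clearly lower in the livers labelled HuR hKO, so the differences of the 10 genes between the groups are given as a description, with no test. Whole liver RNA of 4 mice was sequenced, all male by their labels although the study used both sexes in its animal work. Of these, mice 1 and 2 were the controls and mice 3 and 4 carry the label HuR hKO. All 4 carried floxed alleles of HuR (HuRflox/flox, C57BL/6 J) and were kept for 4 weeks on WDSW, a Western diet with fructose and glucose in the drinking water. The HuRhKO mice were given Cre recombinase in an AAV8 vector through the tail vein, under the thyroxine-binding globulin promoter, which restricts Cre to hepatocytes. The controls were given the same vector with GFP in place of Cre. The age of the mice is not given in the sources used here, and nothing says whether the mice shared a litter or cage. Other liver cells kept the floxed gene, so the mice model a loss in hepatocytes only.

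GBPs and IRGs are large GTPases whose genes are switched on by interferons, mainly interferon gamma, through transcription factors that bind GAS and ISRE elements in their promoters. The proteins gather on the membranes around intracellular bacteria and parasites, and GBPs also help to bring lipopolysaccharide to the inflammasome. Among the IRGs, Irgm1 and Igtp (Irgm3) belong to the regulators that sit on the cell's own membranes, and Iigp1 (Irga6) is an effector that assembles on the membranes around parasites. In liver, hepatocytes, Kupffer cells and endothelial cells can all respond to interferon gamma.

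The GBP genes lie in 2 clusters on GRCm38. Gbp7 (chr3:142530342-142550149), Gbp3 (chr3:142560026-142573209) and Gbp2 (chr3:142620602-142638008) follow one another on the plus strand of chromosome 3. Gbp9 (chr5:105077630-105139539), Gbp10 (chr5:105215699-105239533), Gbp6 (chr5:105270702-105293698) and Gbp11 (chr5:105323042-105346472) lie on the minus strand of chromosome 5. Irgm1 (chr11:48861968-48871683, minus strand) and Igtp (chr11:58199556-58207591, plus strand) lie apart on chromosome 11. Gbp11 is annotated as a polymorphic pseudogene, and the reading frame of its transcript holds 1 internal stop codon.

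The chromosome 5 genes resemble each other closely, which bears on how their reads were counted. The following stretches of 103 coding bases, from GENCODE M21 transcripts on GRCm38, cover the P-loop, the motif that binds the phosphates of GTP, and are shown to let the near-copies be compared base by base. Capitals mark the 24 bases of the P-loop. All 4 lie within an exon on the minus strand, Gbp10 at chr5:105235951-105236053, Gbp6 at chr5:105290837-105290939, Gbp11 at chr5:105343746-105343848 and Gbp9 at chr5:105105664-105105766.
Gbp10: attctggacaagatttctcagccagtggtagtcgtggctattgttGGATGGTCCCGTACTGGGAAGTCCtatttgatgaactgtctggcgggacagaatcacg
Gbp6: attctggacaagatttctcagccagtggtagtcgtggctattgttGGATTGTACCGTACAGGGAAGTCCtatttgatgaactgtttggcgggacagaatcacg
Gbp11: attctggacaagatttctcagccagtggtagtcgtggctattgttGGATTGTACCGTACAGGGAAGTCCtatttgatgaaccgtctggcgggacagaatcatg
Gbp9: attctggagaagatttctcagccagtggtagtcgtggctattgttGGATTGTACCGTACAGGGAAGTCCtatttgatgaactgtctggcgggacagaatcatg
Gbp6, Gbp9 and Gbp11 had the same 24 bases in the P-loop, and Gbp10 differed from them by 3 substitutions. Counted from 1 at the 5′ end of the stretch, with the base of Gbp10 first, these were G50T, C53A and T60A. Over the whole stretch Gbp10 differed from Gbp6 by 4 bases, the other being C85T, and from Gbp9 and Gbp11 by 5 bases each. The P-loops of the regulators Irgm1 and Igtp were identical to each other, although the genes lie far apart, and are shown for that reason (along the strand of each gene, at chr11:48866761-48866784 and chr11:58206275-58206298).
Irgm1: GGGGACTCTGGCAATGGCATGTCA
Igtp: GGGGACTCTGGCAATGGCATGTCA

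Over the aligned coding sequence, Gbp6 and Gbp10 were 98.4% identical. Gbp9 and Gbp11 were between 90.0% and 90.6% identical to each other and to Gbp6 and Gbp10. On chromosome 3 the closest pair, Gbp3 and Gbp7, reached 78.3%, and Gbp2 was at most 62.7% identical to any other GBP here. Irgm1 and Igtp were 67.9% identical.

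Each transcript was then read in windows of 100 bases, and a window was called shared when the same bases occur in a transcript of another annotated gene. This gave 82.9% of the windows of Gbp6 and 70.9% of those of Gbp10. Nearly all of these occur in Gm43302, an annotated gene that spans Gbp10 and Gbp6 on the same strand (chr5:105214907-105293695). The share was 5.13% for Gbp11, 2.01% for Gbp9, 10.2% for Gbp7 (with Gm43802), 5.67% for Igtp (with Irgm2) and 0.929% for Gbp3, and 0 for Gbp2, Irgm1 and Iigp1. A read from Gbp6, Gbp10 or Gm43302 can therefore fit more than 1 of them over most of the transcript, and the counts of these 3 genes taken singly are uncertain. The locus of Gbp9 also overlaps those of Gbp4 and Gbp8 on the same strand.

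**Figure D1:**
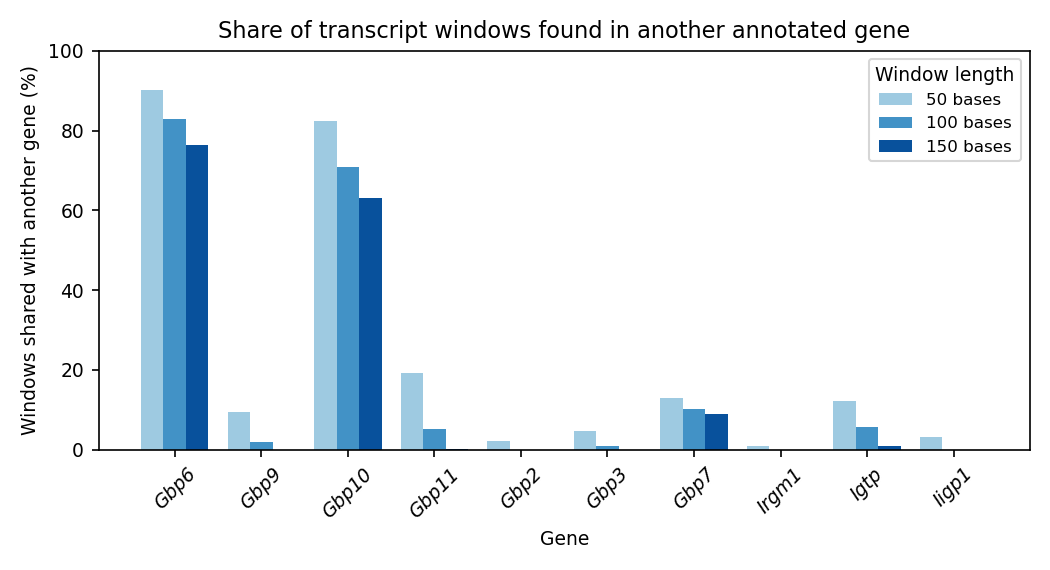
Share of the transcript windows of each gene that occur in a transcript of another annotated gene (y axis, percent) for windows of 50, 100 and 150 bases (light to dark bars). Gbp6 and Gbp10 stand far above the others at every window length, still at 76.5% and 63.2% with 150 bases.

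Promoter sequences, from 250 bases before to 50 after the start, were found for 5 of the 10 genes in the RefSeq table of GRCm38.p6: Gbp2, Gbp3 (with 2 starts), Gbp7, Irgm1 and Igtp. They were searched on both strands for an ISRE-like motif, GAAANNGAAA, and a GAS-like motif, TTCNNNGAA, the elements through which interferons act. A match is a description of the letters and not proof of a bound site. All 5 genes had an ISRE-like match, against 3.44% of all 32851 promoters in the table. The windows below have 10 bases on each side of a match, in capitals, written along the strand of the gene, with matches that read TTTC lying on the opposite strand. They are at chr3:142620594-142620623, chr3:142559989-142560018, chr3:142530273-142530302, chr11:48871431-48871460 and chr11:58199512-58199541, in the order of the lines.
Gbp2: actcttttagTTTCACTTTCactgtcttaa
Gbp3: caggacacagTTTCAGTTTCtatttcccag
Gbp7: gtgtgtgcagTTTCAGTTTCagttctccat
Irgm1: cctgtttcaaGAAATAGAAAccgaaactga
Igtp: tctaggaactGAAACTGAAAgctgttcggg
The matches began 59 bases before the start in Gbp2, 45 in Gbp3, 53 in Gbp7, 30 in Irgm1 and 34 in Igtp. Gbp3 and Irgm1 each held a further overlapping match. A GAS-like match was found in Gbp7 and Igtp, against 8.30% of all promoters, and that of Igtp lies just before its ISRE-like match without overlapping it. The second start of Gbp3 had no match to either motif. Gbp6, Gbp9, Gbp10, Gbp11 and Iigp1 had no entry in the table.

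The libraries held between 13032095 and 19715577 counts on genes. No pair of libraries agreed within sampling noise (the chi-square over its degrees of freedom was at most 35.7 and well above 1 in each pair), so each was 1 replicate. Levels are given as CPM, the counts per 1000000 counts of a library after scaling by TMM factors, which lay between 0.957 and 1.04, and 1 count was worth between 0.0531 and 0.0753 CPM. The marker genes of hepatocytes summed to between 70993 and 80342 CPM in the 4 libraries. Elavl1, which encodes HuR, was at 28.4 and 25.9 CPM in the controls and at 37.7 and 34.4 CPM in mice 3 and 4. By this measure the targeted gene went against its label, with a higher level in mice 3 and 4 (log2 fold change 0.41, SE 0.14). The paper reports reduced HuR mRNA and protein in HuRhKO livers and loss of HuR from hepatocytes by immunofluorescence, which these counts do not show. The counts are per gene, so parts of the gene were not examined, and the cause of the higher count was not tested. Every direction below is between libraries by their labels, and in whole liver fewer cells of a type and less RNA per cell cannot be told apart. With 2 mice in each group an exact permutation test of a single value cannot give a p below 0.333.

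Across all 4 livers the IRGs were expressed far above the GBPs. Levels were also taken per kilobase of transcript, so that genes of unlike length could be compared. The length was that of each gene's longest transcript in the basic set of GENCODE M21. Over all annotated exons Irgm1 is 5810 bases long and Gbp6 5954, against 2259 and 2604 here, while Igtp is 2022 by both. The order of the genes therefore depends on this choice of length. On this scale the control mean was 62.6 CPM per kilobase for Iigp1, 20.8 for Irgm1 and 16.8 for Igtp. The GBPs followed at 5.11 for Gbp6, 3.89 for Gbp11, 3.83 for Gbp10, 2.81 for Gbp7, 2.68 for Gbp3, 1.85 for Gbp2 and 0.907 for Gbp9. In the controls, the ranges of the 2 mice overlapped between the neighbours Gbp6 and Gbp11, Gbp11 and Gbp10, and Gbp7 and Gbp3, and were apart between the other neighbours. In mice 3 and 4, labelled HuR hKO, the IRGs kept the first 3 places, at 51.7, 15.7 and 12.4 CPM per kilobase. Below them every pair of neighbours overlapped, from Gbp6 at 2.50 down through Gbp7, Gbp3, Gbp2, Gbp11 and Gbp10 to Gbp9 at 0.861 CPM per kilobase. Gbp10 held the 6th place of the 10 in the controls and the 9th in the libraries labelled HuR hKO, and Gbp11 the 5th and the 8th.

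**Figure D2:**
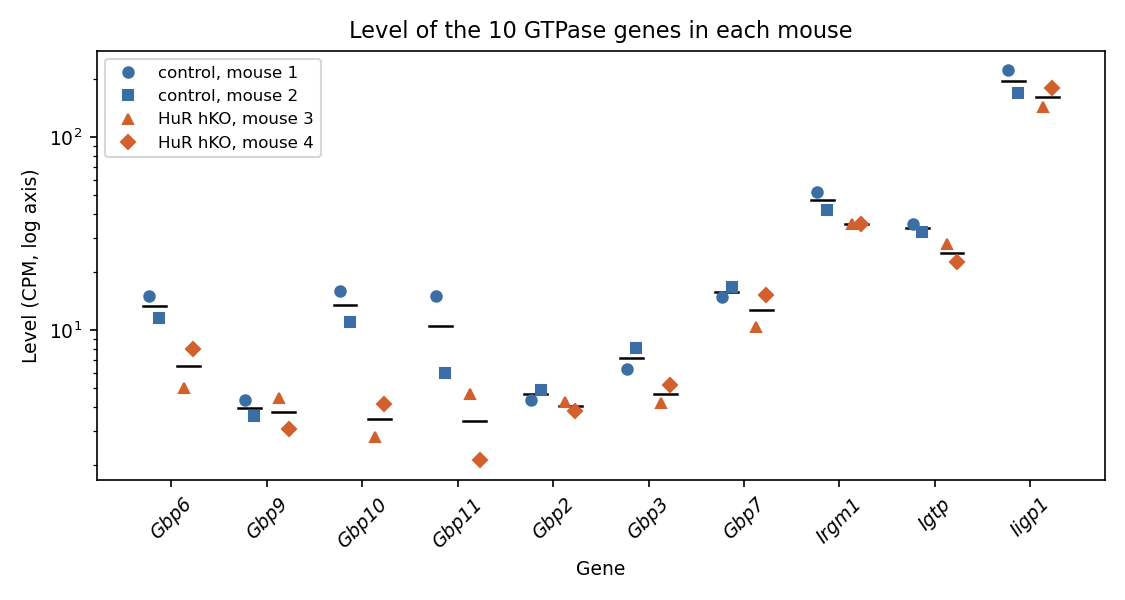
Level of each gene in each mouse (CPM, log axis), with controls in blue, libraries labelled HuR hKO in orange and a black line at the mean of the 2 mice. The groups are widest apart in Gbp10, overlap in Gbp9, Gbp7 and Iigp1, and touch closely in Gbp2.

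Of the chromosome 5 GBPs, Gbp10 differed most between the groups. Gbp10 was at 16.0 and 11.05 CPM in the controls (212 and 148 counts) and at 2.79 and 4.14 CPM in mice 3 and 4 (40 and 78 counts). Both libraries labelled HuR hKO were below both controls, with the lower control 2.67 times the higher of them. The fitted log2 fold change was -1.94 (SE 0.27), a level 3.85 times lower.

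Gbp6, the near-copy of Gbp10, had 15.1 and 11.6 CPM in the controls and 5.02 and 8.02 CPM in mice 3 and 4. Its groups did not overlap, and the log2 fold change was -1.02 (SE 0.25). Gbp11 had 15.0 and 5.97 CPM in the controls and 4.67 and 2.12 CPM in mice 3 and 4. The controls of Gbp11 differed more from each other than the lower control did from mouse 3, and its log2 fold change of -1.65 had the largest error of the 10 genes (SE 0.48). Without mouse 1 the value of Gbp11 was -0.85, and its lowest value with a mouse left out was -2.31. Gbp9, the last of the cluster, had 4.36 and 3.58 CPM in the controls and 4.46 and 3.08 CPM in mice 3 and 4. The groups overlapped, and the log2 fold change of Gbp9 was -0.09 (SE 0.30), with the sign turned without scaling for library size (0.20), without mouse 1 (0.05) and without mouse 4 (0.17).

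Because reads can fall to Gbp6, Gbp10 or Gm43302, their counts were also added. Gm43302 itself had 40 and 28 counts in the controls, 21 counts in mouse 3 and 0 counts in mouse 4, which allows up to 0.159 CPM there. The 3 genes together came to 34.0 and 24.7 CPM in the controls and 9.28 and 12.2 CPM in the libraries labelled HuR hKO. The sum was 2.74 times lower in mice 3 and 4 than in the controls (log2 ratio of the means -1.45), with no overlap between the groups. If reads that fit several genes were counted, the sum does not depend on their split among the 3 genes. If such reads were left out, the sum holds only reads that fit 1 gene, and which was done is not known. The ratio of Gbp10 to Gbp6 counts was 1.06 and 0.955 in the controls and 0.556 and 0.517 in mice 3 and 4. The counts assigned to the near-copies thus differed in their split as well as in their sum. How shared reads were assigned is not known, so the split may not be that of the transcripts.

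Gbp6, Gbp9, Gbp10 and Gbp11 summed to 50.3 and 32.2 CPM in the controls and to 17.0 and 17.4 CPM in mice 3 and 4. The control mean was 41.3 CPM ± 12.8 (SD, n = 2) and that of the libraries labelled HuR hKO 17.2 CPM ± 0.288 (SD, n = 2), a log2 ratio of -1.27. Control mouse 1 carried part of this, since the ratio was -0.91 without it. Of the counts of these 4 genes, Gbp10 took 31.7% (95% Wilson interval 28.3% to 35.3%) in mouse 1 and 34.3% (30.0% to 38.9%) in mouse 2. In mouse 3 Gbp10 took 16.5% (12.3% to 21.6%) and in mouse 4 23.9% (19.6% to 28.8%). Of the controls, the interval of mouse 4 overlapped only that of mouse 1, and the interval of mouse 3 lay below those of both controls. Gbp9 took 8.67% and 11.1% in the controls and 26.3% and 17.7% in mice 3 and 4. Such intervals cover counting error only.

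**Figure D3:**
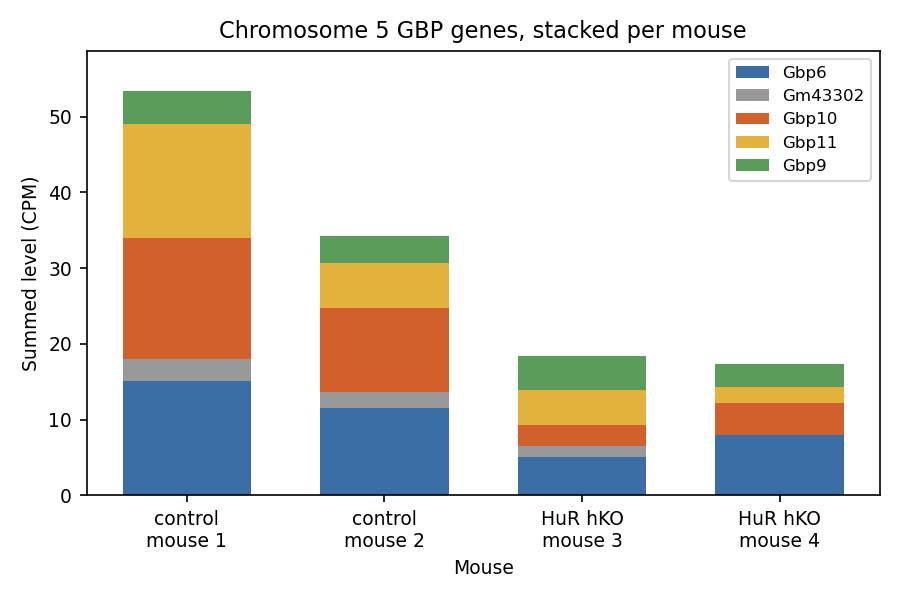
Summed level of the chromosome 5 GBP genes (y axis, CPM) in each mouse, stacked by gene, with Gm43302 in grey. The stacks come to 53.4 and 34.3 CPM in the controls and to 18.4 and 17.4 CPM in the libraries labelled HuR hKO, while the green part, Gbp9, is of like height in all 4.

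The chromosome 3 GBPs differed less. Gbp3 had 6.32 and 8.06 CPM in the controls and 4.19 and 5.20 CPM in mice 3 and 4. Its groups did not overlap, and the log2 fold change was -0.61 (SE 0.24). Gbp7, which has been tied to the delivery of oxidase subunits to vacuoles, had 14.9 and 16.6 CPM in the controls and 10.3 and 15.1 CPM in mice 3 and 4. Its groups overlapped, since mouse 4 was above mouse 1, and the log2 fold change was -0.30 (SE 0.21), with -0.08 without mouse 3 and -0.61 without mouse 4. Gbp2, which coats the vacuoles of Toxoplasma, had 4.36 and 4.93 CPM in the controls and 4.26 and 3.82 CPM in mice 3 and 4. The groups of Gbp2 were apart by a ratio of only 1.03, and its log2 fold change of -0.20 was smaller than its SE of 0.25 and lay between -0.30 and -0.11 with a mouse left out.

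The IRGs were more abundant and measured with smaller errors. Irgm1 had 51.9 and 42.1 CPM in the controls and 35.3 and 35.6 CPM in mice 3 and 4, with a log2 fold change of -0.41 (SE 0.15). Igtp had 35.4 and 32.4 CPM in the controls and 27.8 and 22.5 CPM in mice 3 and 4, with a log2 fold change of -0.43 (SE 0.15). In both genes the groups did not overlap. Iigp1 had 221 and 169 CPM in the controls and 144 and 179 CPM in mice 3 and 4, and there the groups overlapped (log2 fold change -0.28, SE 0.18). The value of Iigp1 was -0.08 without mouse 1, -0.14 without mouse 3, -0.45 without mouse 2 and -0.44 without mouse 4. Without mouse 1 that of Irgm1 was -0.26, and without mouse 4 that of Igtp was -0.29.

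All 10 genes passed the filter on low counts, and all 10 had a lower fitted level in the libraries labelled HuR hKO, against 49.7% of the 13001 genes tested, except that Gbp2, Gbp7, Gbp9 and Iigp1 turned higher without scaling for library size. Without that scaling the median of all genes moved to 0.31, and all 10 genes stayed below it. The median log2 fold change of the 10 genes was -0.42, beside 0.002 over all genes tested. In 7 of the 10 both libraries labelled HuR hKO were below both controls, against 18.8% of all genes. By the rule in the study's legend, a fold of at least 1.8 and an unadjusted p under the threshold of 0.05, 3 of the 10 were lower (Gbp6, Gbp10 and Gbp11), against 0.915% of all genes. At an adjusted p under 0.05 in edgeR's quasi-likelihood test 0 of the 10 were called, against 0.0231% of all genes, while 6 were lower with an unadjusted p under 0.05, against 3.39% of all genes. The DESeq2 Wald test called 1 of them (Gbp10), against 0.654% of the genes it tested, and limma-voom 0, against 0.0154%. Without a filter on low counts edgeR called 3 (Gbp6, Gbp10 and Gbp11), against 161 of 21432 genes. Without scaling for library size it called 2 (Gbp10 and Gbp11), against 155 of 13001 genes. The 10 genes were chosen on this contrast, so nothing is read from these counts.

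**Figure D4:**
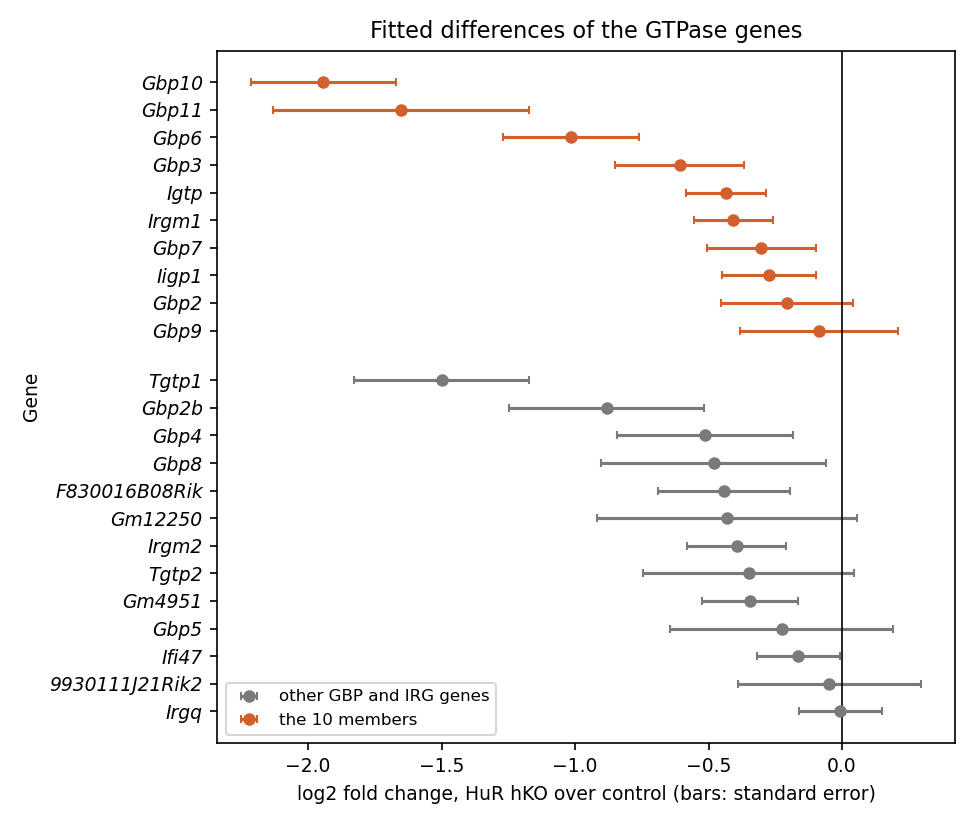
Fitted log2 fold change, libraries labelled HuR hKO over control (x axis), with bars of 1 SE, for the 10 genes (orange) and for the 13 other GBP and IRG genes tested (grey). Every point lies left of 0, from -1.94 for Gbp10 to -0.01 for Irgq, and 4 of the orange and 4 of the grey points move right of 0 without scaling for library size.

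The other genes of the GBP and IRG families were not among the 10, but their list was written with earlier results of these data known. Gbp4 and Gbp8 overlap the locus of Gbp9, Irgm2 overlaps Igtp, and all were measured in the same 4 mice. The counts below describe these other family genes and give no separate support for the 10. Of 17 such genes, 13 passed the filter on low counts, and all 13 were fitted lower in mice 3 and 4 than in the controls (median log2 fold change -0.40), against 49.7% of all genes. The median was between -0.55 (without mouse 2) and -0.19 (without mouse 4) with a mouse left out, and -0.11 without scaling. The count was 11 of 13 without mouse 2, 10 of 13 without mouse 4 and 9 of 13 without scaling for library size, where all 13 stayed below the median of all genes. At an adjusted p under 0.05 edgeR called 0 of the 13, against 0.0231% of all genes, and 2 were lower with an unadjusted p under 0.05, against 3.39%. The DESeq2 Wald test and limma-voom also called 0 of the 13. Without a filter on low counts edgeR called Tgtp1, of 16 family genes tested there, against 161 of 21432 genes. Tgtp1, an IRG effector, had 6.77 and 5.82 CPM in the controls and 2.93 and 1.59 CPM in mice 3 and 4 (log2 fold change -1.50, SE 0.33, adjusted p = 0.266, edgeR). Its neighbour and near-copy Tgtp2 had 5.42 and 3.66 CPM in the controls and 4.95 and 2.28 CPM in mice 3 and 4, so the groups overlapped, and the split of reads between the pair is uncertain. Gbp2b, also called Gbp1, had a log2 fold change of -0.88 (SE 0.36, adjusted p = 0.641, edgeR). The most abundant were Gm4951, a relative of Iigp1, with a log2 fold change of -0.34 (SE 0.18), and Irgm2, a regulator that overlaps Igtp, with -0.40 (SE 0.19). Irgq, an IRG-like gene not known as interferon-inducible, was at 16.3 and 17.8 CPM in the controls and 18.3 and 15.7 CPM in mice 3 and 4 (log2 fold change -0.01, SE 0.16).

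Of 5 other interferon-inducible GTPases, 3 were tested and all 3 had a lower fitted level, with a median of -0.76, which was -0.51 without scaling for library size. Gvin1, a very large inducible GTPase, had 24.5 and 19.2 CPM in the controls and 6.91 and 11.8 CPM in mice 3 and 4 (log2 fold change -1.20, SE 0.25, adjusted p = 0.220, edgeR). The DESeq2 Wald test called it at an adjusted p under 0.05, which edgeR did only without a filter on low counts. Mx2, an antiviral dynamin-like GTPase, had a log2 fold change of -0.76 (SE 0.38), and Gm4070 had -0.73 (SE 0.51) with groups that overlapped.

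Over all 10 lists of the interferon pathway outside the 10 genes, 137 of 159 genes were tested. At an adjusted p under 0.05 edgeR called 0, the DESeq2 Wald test 1 (Gvin1) and limma-voom 0. Without a filter on low counts edgeR called 2 (Gvin1 and Tgtp1), against 161 of 21432 genes. Without scaling for library size it called 1 (Ifi27l2a), against 155 of 13001 genes. An unadjusted p under 0.05 was reached by 11 genes, 8.03% of the 137 against 7.43% of all genes tested, of which 7 were lower (3.39% of all genes were) and 4 higher (4.04% of all genes were). The share over all lists was thus near that of all genes. Without scaling for library size the median log2 fold change of all genes tested was 0.31, and the list medians without scaling are to be read beside that value.

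The ligands were barely detected. Interferon gamma itself (Ifng) had 1 count in 1 control and 0 in the other 3 libraries, and Ifnb1, Ifna4, Ifnl2 and Ifnl3 had 0 counts in all 4, which allows up to 0.226 CPM in the shallowest library. Of the ligands and receptors, 7 of 17 were tested, of which 5 were fitted higher (median log2 fold change 0.12). This median was 0.44 without scaling, -0.10 without a filter on low counts and 0.02 without mouse 1. The receptor chain Ifnar2 had a log2 fold change of -0.15 (SE 0.13), Ifnar1 had -0.15 (SE 0.13) and the interferon gamma receptor chain Ifngr2 had 0.12 (SE 0.15), and 0 genes of this list reached an unadjusted p under 0.05.

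Of the 14 signalling and transcription factor genes tested, 10 were fitted lower and 4 higher, with a median of -0.08 that turned to 0.22 without scaling and to 0.04 without mouse 1. Jak1, the kinase shared by the receptors, had a log2 fold change of -0.02 (SE 0.14), and Irf2, which competes with Irf1 for ISREs, had -0.06 (SE 0.17). Of the 7 inhibitors of the pathway tested, 6 were fitted lower with a median of -0.15, which was 0.17 without scaling, and 0 had an unadjusted p under 0.05.

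The other targets of interferon gamma lay on both sides of 0. Of 20 antigen presentation genes tested, 11 were fitted lower and 9 higher, with a median of -0.05 that was 0.24 without scaling and 0.01 without mouse 4. B2m, the light chain of MHC class I, had a log2 fold change of -0.11 (SE 0.15), and 0 genes of this list had an unadjusted p under 0.05. Of 14 further targets, 8 were fitted higher and 6 lower, with a median of 0.03 that was 0.36 without scaling and -0.08 without mouse 4. Icam1, an adhesion molecule, had 6.70 and 7.91 CPM in the controls and 12.8 and 10.5 CPM in mice 3 and 4 (log2 fold change 0.67, SE 0.20, adjusted p = 0.472, edgeR). Ly6e had a log2 fold change of 0.41 (SE 0.14, adjusted p = 0.548, edgeR), and Parp14 had -0.34 (SE 0.14, adjusted p = 0.632, edgeR).

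Of 30 genes induced by type I interferon, 18 were fitted lower and 12 higher, with a median of -0.09, which turned to 0.23 without scaling and to 0.02 without mouse 1. Ifi27l2a had 1.96 and 1.87 CPM in the controls and 2.86 and 6.37 CPM in mice 3 and 4 (log2 fold change 1.29, SE 0.41, adjusted p = 0.530, edgeR). Bst2, which tethers viruses to the cell, had a log2 fold change of 0.31 (SE 0.13, adjusted p = 0.660, edgeR), and Rtp4 had -0.42 (SE 0.18, adjusted p = 0.653, edgeR).

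The partners of the GTPases, such as ubiquitin and autophagy genes, gave 12 genes fitted lower and 10 higher of 22, with a median of -0.04 (0.28 without scaling, and 0.005 without mouse 2). The ubiquitin gene Ubb had a log2 fold change of -0.04 (SE 0.14). Of the inflammasome genes that act after the GBPs, 7 of 9 were tested and 4 were fitted higher, with a median of 0.25 that was 0.56 without scaling, 0.06 without mouse 3, 0.12 without mouse 1 and 0.41 without mouse 4. Gsdmd, which forms the pores of pyroptosis, had a log2 fold change of 0.25 (SE 0.13), and 0 genes of this list had an unadjusted p under 0.05.

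**Figure D5:**
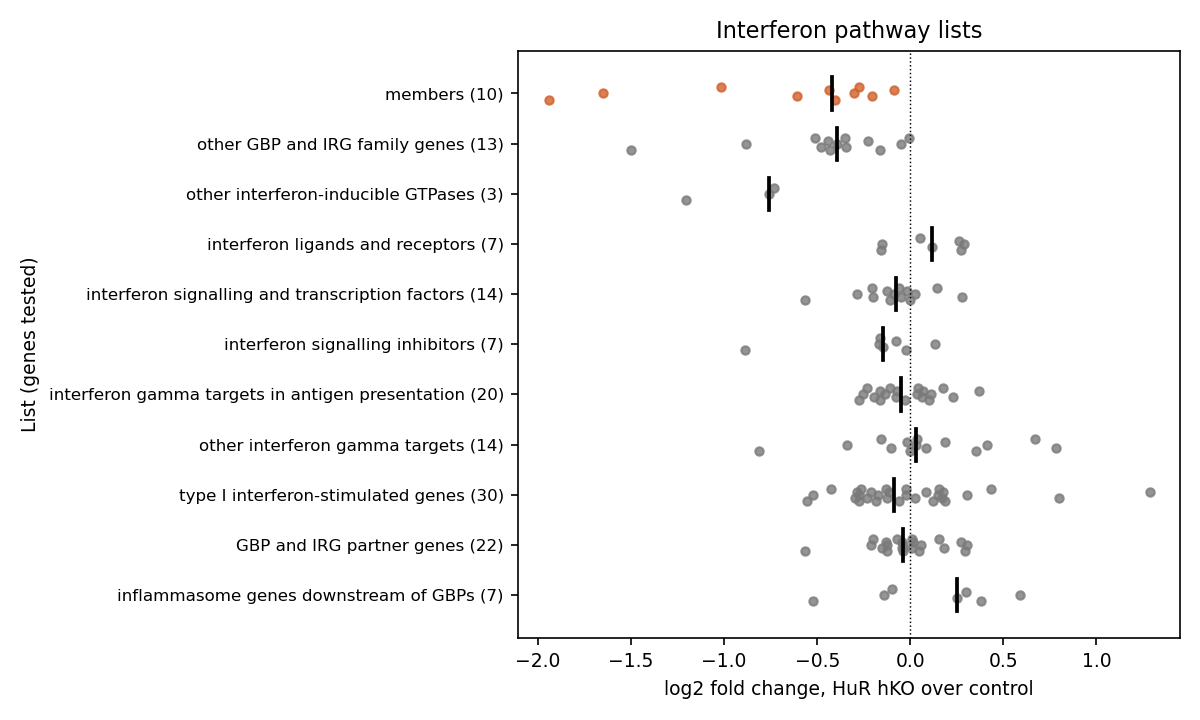
Fitted log2 fold change, libraries labelled HuR hKO over control (x axis), of each gene tested in the 10 GTPase genes (orange, top row) and the 10 pathway lists (grey), with a black line at the median of each list and the number of genes tested in parentheses. The medians of the 3 GTPase rows are -0.42, -0.40 and -0.76, and those of the other 8 rows lie between -0.15 and 0.25.

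Markers of other cell types that express GBPs and IRGs were read beside these values. The 13 markers of Kupffer cells and macrophages summed to 255 and 271 CPM in the controls and to 303 and 282 CPM in mice 3 and 4, and 9 of 13 were fitted higher. The 8 markers of dendritic cells summed to 201 and 199 CPM in the controls and to 256 and 227 CPM in mice 3 and 4. Most of this was Bst2, at 188 and 185 CPM in the controls and 243 and 219 CPM in mice 3 and 4. Of the 5 dendritic cell markers tested, 2 were fitted higher and 3 lower (median log2 fold change -0.30). Markers of T and NK cells, which make interferon gamma, were low in every library. The 13 summed to 4.74 and 7.91 CPM in the controls and to 5.37 and 6.21 CPM in mice 3 and 4, so the groups overlapped, with 3 of the 13 tested. The 8 neutrophil markers moved with the GTPases, at 2.18 and 2.46 CPM in the controls and 1.95 and 1.54 CPM in mice 3 and 4, with 1 of 8 tested and Ly6g at 0 counts in all libraries. The summed markers of endothelial cells, B cells, stellate cells, cholangiocytes and hepatocytes overlapped between the groups. Of the markers tested, 9 of 10 endothelial, 5 of 6 B cell and 7 of 9 stellate cell markers were fitted higher. Of cholangiocyte markers 2 of 5 and of hepatocyte markers 4 of 9 were fitted higher, beside 6544 of all 13001 genes. B cell markers were lowest in control mouse 1, at 6.40 CPM against 20.3 to 42.0 CPM in the others. The part of these cells in the values of the GTPases was not tested.

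The genes most like Gbp10 over the 4 mice were found by the root mean square difference of log2 CPM (with 0.25 CPM added), each gene centred on its own mean, among genes tested and outside the 10. With 4 points of which 2 belong to each group, this finds genes with a like difference between the groups and no more. The nearest was Gm4841 (0.11), an IRG family gene that no list here held, with 20 and 14 counts in the controls and 1 and 6 counts in mice 3 and 4. It was followed by the peptide transporter Slc15a2 (0.25), the noncoding gene C730036E19Rik (0.26), a gene without a symbol (ENSMUSG00000107169, 0.26) and the chromatin remodeller Srcap (0.27). Slc15a2 had 6.92 and 6.27 CPM in the controls and 1.88 and 1.96 CPM in mice 3 and 4. Among the 10 genes, Gbp6 was nearest to Gbp10, at 0.44, and Gbp9 farthest, at 0.98.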

How the data were processed

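Whole liver RNA of 4 mice was measured by RNA-seq. The authors deposited whole-number read counts per Ensembl gene for each mouse, without normalization. Per the labels, the submitters' processing notes name RSEM and GRCm38 without a role. The aligner, strand use and treatment of reads that match several genes are not given in the sources used here. Symbols were found for 46005 of 46603 identifiers, and 0 columns were left without a sample. Counts were filtered (minimum count 10, total 15), scaled by TMM and compared with the quasi-likelihood test of edgeR 4.0.16 (R 4.3.3), adjusted by the Benjamini-Hochberg method over 13001 genes. The code was tested on simulated data. Alternatives used DESeq2 1.42.0 and limma 3.58.1. P-values set a difference between the groups against the spread between these 4 mice only, estimated in part from the other genes. Intervals and limits for a count of 0 (3 counts) cover counting error only.

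The members and lists were chosen with earlier results of these data known. All members are named, with Elavl1, the 5 genes most like Gbp10, list genes with an unadjusted p under 0.05 and, beside them, at most the 3 most abundant of a pathway list and 2 of a marker list. Tgtp2, Gm43302 and the interferon genes at or near 0 counts were named after their values were seen. A few genes named by this choice are left unreported.

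Lengths, coordinates and coding sequences were taken from GENCODE M21 (python 3.11.15, biopython 1.88, pandas 2.3.3).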

Additional observations from a re-analysis of the deposited data

How the results depend on the processing

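Each replicate is 1 library of 13032095 to 19715577 counts, and 2 libraries per group limit every difference. The number of genes called at an adjusted p under 0.05, 3, was 155 without scaling for library size, 161 without a filter on low counts and 85 by the DESeq2 Wald test, and 0 to 73 with a mouse left out. The genes lower past a fold of 1.8, 119, were 61 without scaling, 264 without a filter and 139 to 232 with a mouse left out. The median log2 fold change of the 10 GTPases, -0.42, was -0.12 without scaling and -0.53 to -0.39 with a mouse left out, and 6 of the 10 were then fitted lower without scaling, with 9 or 10 when a mouse was left out. The 11 pathway genes with an unadjusted p under 0.05 were 17 without a filter, 7 by the DESeq2 Wald test and 4 to 14 with a mouse left out. The chromosome 5 sum, -1.27, was -1.55 to -0.91 with a mouse left out, -1.14 with Gbp4 and Gbp8 added and -1.29 with Gm43302 added, the last chosen after seeing the data. With a mouse left out, the lone mouse of its group is assumed to vary like the others. Without scaling, the depth of a library stays in its values, and the median log2 fold change of all genes tested was 0.31. The cause of the other shifts was not tested. Gbp10 kept a log2 fold change between -2.27 and -1.61 in all 11 alternatives. No paired analysis was possible because the mice carry numbers that the groups do not share.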
